A study of Mus musculus with 2 samples.

Results

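Intermediate cells are the melanocytes of the stria vascularis (SV), the epithelium of the cochlear lateral wall, and 881 of the 3486 nuclei kept from the snRNA-Seq data of the adult mouse SV belonged to them by the rule used here (25.3%, 95% interval 23.8% to 26.7%). A nucleus was a member when the UMIs (unique molecular identifiers, 1 per captured RNA molecule) of 9 intermediate cell markers, Tyr, Dct, Mlana, Pmel, Mitf, Kcnj13, Slc45a2, Met and Tyrp1, made up at least 0.6% of its UMIs, and those of 8 marginal cell markers, Kcnq1, Kcne1, Esrrb, Lmx1a, Abcg1, Heyl, Stac and Slc12a2, less than 0.5%. All barcodes had at least 200 genes, at most 8000 UMIs and at most 10% of UMIs from mitochondrial genes, and 5293 different barcodes were present before these limits. The members were thus chosen by measured marker levels, so the levels of the marker genes, and of every gene that varies with them, describe the members and test nothing.

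Both libraries came from the SV of CBA/J mice at postnatal day 30 (P30), with no transgene or treatment other than the preservation of the sample. In MethFix, isolated nuclei of 5 to 6 pooled mice were fixed in methanol, and in RNAlater, microdissected tissue of 10 pooled mice, by the labels, was kept in the RNAlater reagent overnight before nuclei were isolated (the study's methods give a different number of mice for RNAlater). The MethFix matrix holds 4748 barcodes with 21027671 UMIs and the RNAlater matrix 3868 barcodes with 17681824 UMIs. The same 3323 barcode sequences were found in each, which is 70.0% of MethFix and 85.9% of RNAlater, and both libraries were therefore counted as 1 sample. There is no replicate of any kind and no test between groups, and every interval covers counting error only.

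Each shared barcode was therefore used once, with its RNAlater counts, and the MethFix barcodes absent from the RNAlater matrix were added to them. The members comprised 526 RNAlater barcodes (22.6% of 2329, interval 20.9% to 24.3%) and 355 MethFix-only barcodes (30.7% of 1157, interval 28.0% to 33.4%). All 526 RNAlater members were also present in the MethFix matrix, with 0 found in the RNAlater matrix alone. By their MethFix counts, 516 of the 526 met the rule again, and their RNAlater UMIs were a median of 1.20 times their MethFix UMIs (quartiles 1.18 and 1.22). Whether the shared barcodes belong to MethFix or to RNAlater tissue cannot be told apart from the matrices, so no difference below is a difference between preservation methods.

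Intermediate cells derive from the neural crest and lie between the marginal cells, which face the endolymph, and the basal cells, which close the SV off from the spiral ligament. They make melanin in melanosomes, with Tyr, Dct and Tyrp1 as the enzymes of the pathway and MITF as the transcription factor that governs the lineage. In the SV they are best known for KCNJ10 (Kir4.1), the potassium channel across which the endocochlear potential arises, and they are joined to basal cells by gap junctions.

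MITF binds the letters CATGTG and CACGTG, so these 6 letters were looked for on both strands of the RefSeq promoters of GRCm38.p6, from 250 bases before to 50 bases after each start. The 5 stretches below, each within 250 bases before a start, are shown because they carry these letters in genes whose RNA marks the members. The Tyr stretch lies at chr7:87493516-87493545 (minus strand), that of Dct at chr14:118052379-118052408 (minus strand), that of Kcnj13 at chr1:87394824-87394853 (minus strand), that of Trpm1 at chr7:64153682-64153711 (plus strand) and that of Mlph at chr1:90915040-90915069 (plus strand). Capitals mark the letters found, which read CACATG where CATGTG stands on the other strand.
Tyr: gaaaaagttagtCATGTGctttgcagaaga
Dct: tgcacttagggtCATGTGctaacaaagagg
Kcnj13: agcattcttttcCACATGatcagagctaat
Trpm1: ccaaatcctcatCATGTGcccaccccaaac
Mlph: tcaggagtagccCACGTGatctgagccgca

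Of the 9 intermediate markers, 6 have an entry in the promoter table and 5 of these 6 hold one or the other motif. Of the genes on a list of other melanosome and pigment genes, 21 have an entry and 10 hold a motif. Over all 32851 promoters, 14.15% hold CATGTG, 7.15% hold CACGTG and 20.4% hold either. Either motif was held by 17.4% of the promoters of the 10312 genes with both a measured ratio and an entry. For the 747 genes with an entry that were higher in members outside the rule, the share was 17.8%. Counted by promoter, 5 of 8 of the intermediate markers and 11 of 24 of the melanosome list hold one. A match describes sequence and is no evidence of binding.

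Dct, the dopachrome tautomerase of melanin synthesis, was the most abundant marker, at 18822 UMIs per 1000000 UMIs (CPM; interval 18685 to 18959) in members against 1269 in all other nuclei. Tyr, the tyrosinase at the head of the pathway, stood at 4542 CPM against 178, and Met, the receptor of hepatocyte growth factor, at 2832 against 142. Slc45a2, a melanosomal transporter, stood at 765 CPM against 49.4, Kcnj13, a potassium channel (Kir7.1), at 190 against 17.3, and Mlana, a melanosomal protein, at 67.5 against 13.8. Mitf was the least separating of the markers with 20 UMIs or more, at 1452 CPM in members against 410 in all other nuclei. Pmel, the structural protein of melanosome fibrils, had only 6 UMIs in all members and Tyrp1 only 1, so 7 of the 9 markers were measured above 20 UMIs and Dct gave most of the summed level of 28673 CPM.

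The summed marker share, on which the members were chosen, left few nuclei near the threshold. Their median share was 3.00% in RNAlater barcodes and 2.66% in MethFix-only barcodes, with a range from 0.619% to 7.05% over all members, and the median of all other nuclei was 0.0928%. The 5 members just inside the threshold stood at 0.619%, 0.620%, 0.646%, 0.669% and 0.670%, and the 5 nuclei just outside it at 0.583%, 0.564%, 0.564%, 0.562% and 0.550%. Only 66 kept nuclei lay between 0.4% and 0.6%, and 11 members between 0.6% and 0.8%. At least 5 different markers were detected in 83.0% of members, against 0.955% of the nuclei with marginal markers and 1% of those with basal markers, and no member had more than 7.

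**Figure D1:**
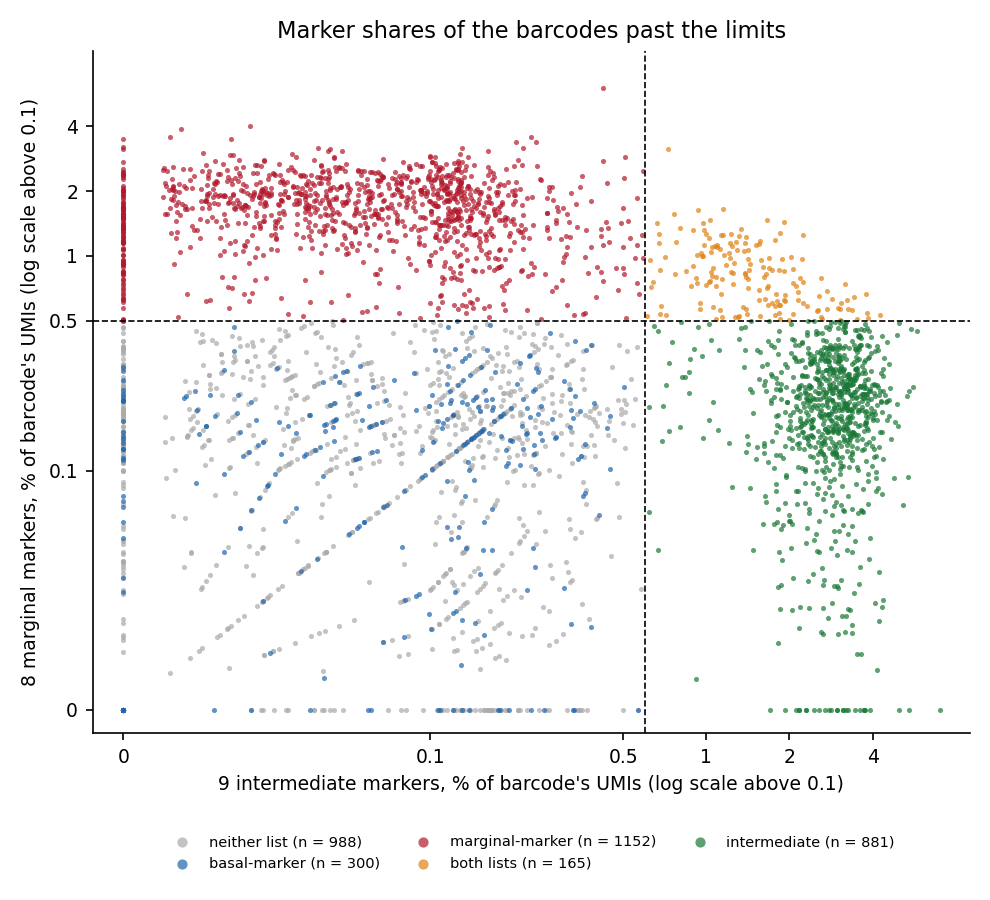
Share of a nucleus's UMIs from the 9 intermediate markers (horizontal) and the 8 marginal markers (vertical), in percent on axes that are logarithmic above 0.1, for the 3486 nuclei kept, 1 point each. The 881 members lie right of the dashed line at 0.6% and below that at 0.5%, most of them near 3%, and the 165 nuclei past both thresholds spread between the members and the marginal-marker nuclei.

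Members were described against all 2605 other nuclei and against nuclei of the neighbouring layers. Marginal-marker nuclei (1152) had at least 0.5% of UMIs from the marginal markers and less than 0.6% from the intermediate ones. Basal-marker nuclei (300) had at least 0.5% from 7 basal markers, Cldn11, Sox8, Nr2f2, Cacna1e, Fat2, Sorcs3 and Col27a1, with both other lists below their thresholds. A further 165 nuclei passed both the intermediate and the marginal threshold, 137 of them MethFix-only and 28 RNAlater barcodes, and belong to the other nuclei by the rule. Scrublet, a tool that marks barcodes resembling 2 nuclei in 1 droplet, marked 71 of the 165 (43.0%) and 54 of the 881 members (6.13%).

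Members had a median of 5438 UMIs and 2352.5 genes in RNAlater barcodes and of 2513 UMIs and 1170 genes in MethFix-only barcodes. The marginal-marker nuclei had 5910 and 2449 UMIs, and the basal-marker nuclei 3042.5 and 1012. Thinned to 1000 UMIs, members showed a median of 663 genes in RNAlater and 575 in MethFix-only barcodes, and marginal-marker nuclei 701 and 648.5. The mitochondrial share of members was a median of 0.349% and 1.07%. A further 589 barcodes met the marker rule but exceeded the mitochondrial limit, 560 of them RNAlater, with a median mitochondrial share of 50.8% and a median marker share of 1.05%.

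Of 14394 genes with at least 20 UMIs in both groups together, 1127 (7.83%) were at least 2-fold higher per total UMIs in members than in all other nuclei and 3281 (22.8%) at least 2-fold lower. The median log2 ratio of all genes was -0.18. Within the RNAlater and the MethFix-only barcodes separately, 528 of 10625 genes were higher in both, 1389 were lower in both, and 6 were called in opposite directions. Against marginal-marker nuclei 1711 of 12756 genes (13.4%) were higher and 2085 (16.3%) lower, and against basal-marker nuclei 1902 of 11242 (16.9%) were higher and 1710 (15.2%) lower. These shares are the background for the counts that follow, where "higher" and "lower" mean a 2-fold difference.

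The genes that stood furthest above all other nuclei, outside the rule and in both barcode sources, were led by Ddx43, an RNA helicase, at 126 CPM in RNAlater members and 92.4 in MethFix-only members, against 0.769 and 14.4 in the other nuclei (pooled log2 ratio 4.97). Pax3, a transcription factor of the melanocyte lineage, stood at 1037 and 738 CPM in members against 15.9 and 101 in the others (log2 ratio 4.80, interval 4.64 to 4.96). Slc24a2, a potassium-dependent sodium/calcium exchanger, stood at 1257 and 797 CPM against 18.7 and 124 (4.77). In each of these genes both sources of members lay above both sources of other nuclei. The next genes were Slitrk5, the antisense transcript RP24-229D22.1, the adhesion molecule Opcml, the matrix protein Edil3, the antisense transcript Gm26688, Bfsp2, known as a filament protein of the lens, the zinc finger gene Bnc2, the matrix protein Spon1 and the phospholipid flippase Atp10a, with pooled log2 ratios from 4.76 down to 4.43. Opcml was the most abundant of these 12, at 2830 CPM in RNAlater and 1859 in MethFix-only members.

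These ratios moved with the 165 nuclei that hold both marker lists and count among the others. Without them RP24-229D22.1 came before Ddx43, and the log2 ratios against the other nuclei were 8.63 for RP24-229D22.1, 8.50 for Ddx43, 7.50 for Pax3, 6.89 for Slc24a2 and 7.09 for Opcml, and among the list genes described below 4.54 for Gpnmb and 4.84 for Ednrb, against 3.81 and 3.95 with them. Against marginal-marker nuclei the first genes were RP24-229D22.1, Ddx43, Opcml, Pax3, Slc24a2 and Slc24a5, a melanosomal exchanger, with log2 ratios from 8.98 to 7.74. Opcml stood at 10.5 CPM in marginal-marker nuclei and Pax3 at 4.01. The ratio of Slc24a5 rests on 1 UMI in marginal-marker nuclei and that of Ddx43 on 2. In RNAlater and MethFix-only barcodes the ratios were 9.18 and 5.92 for Opcml, 9.25 and 5.91 for Pax3, and 9.01 and 5.74 for Slc24a2. Against basal-marker nuclei the first were RP24-229D22.1, Bnc2, Slc24a2, Ccbe1, a secreted matrix protein, Gucy2f, a guanylate cyclase known from photoreceptors, and Opcml, with log2 ratios from 8.48 to 7.52. These rest on 1 to 13 UMIs of each gene in basal-marker nuclei, with an interval from 6.00 to 13.8 for RP24-229D22.1. Within MethFix-only barcodes, where the basal-marker nuclei hold only 58662 UMIs, RP24-229D22.1, Bnc2 and Ccbe1 had 0 UMIs in those nuclei, and their ratios of 2.54, 4.54 and 4.61 are lower bounds computed against 3 UMIs. The other ratios, on 1 to 4 basal UMIs there, were 4.26 for Gucy2f, 4.77 for Opcml and 5.55 for Slc24a2, against 8.56, 8.09 and 8.09 in RNAlater barcodes. Ccbe1 reached 1893 CPM in RNAlater and 1249 in MethFix-only members, and 8.62 in basal-marker nuclei. Its level in marginal-marker nuclei was 1449 CPM (log2 ratio of members to these 0.25), so a high level of Ccbe1 was not particular to members.

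Genes that were lowest in members included Myo3b, an unconventional myosin, with 2 UMIs in all members against 110 CPM in the others and 192 in marginal-marker nuclei (log2 ratio to marginal-marker nuclei -8.54, interval -11.6 to -6.68). Under the processing alternatives this ratio ranged from -9.48 to -4.10. Pcsk6, a proprotein convertase, stood at 2.83 and 31.8 CPM in RNAlater and MethFix-only members and at 1619 in marginal-marker nuclei. Cacnb2, a subunit of voltage-gated calcium channels, stood at 23.0 and 274 CPM in members and at 8732 in marginal-marker nuclei. In both genes the levels in MethFix-only members were over 10 times the RNAlater members and still far below the marginal-marker nuclei. Low levels of these genes were not particular to members. In basal-marker nuclei Myo3b had 1 UMI, Pcsk6 stood at 2.16 CPM and Cacnb2 at 41.0. Pooled members stood at 10.6 CPM for Pcsk6 and 90.5 for Cacnb2. Pde9a, which breaks down cyclic GMP, and Spink13, Macc1 and Il13ra1 had 1 UMI each in members, Pm20d1 had 2, and the transcripts Gm37795 and Gm10848 had 3 each. Against basal-marker nuclei the lowest genes were Lctl, Ackr3, a scavenger receptor of the chemokine CXCL12, Itgb8, Bmp6, Tbx18 and Gm5089, all with log2 ratios between -5.16 and -5.10. Bmp6, a growth factor, stood at 14.5 CPM in RNAlater and 80.9 in MethFix-only members and at 1135 in basal-marker nuclei. These ratios moved with the barcodes used, from -6.28 in RNAlater to -3.98 in MethFix-only barcodes for Bmp6 and from -6.85 to -4.07 for Lctl.

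**Figure D2:**
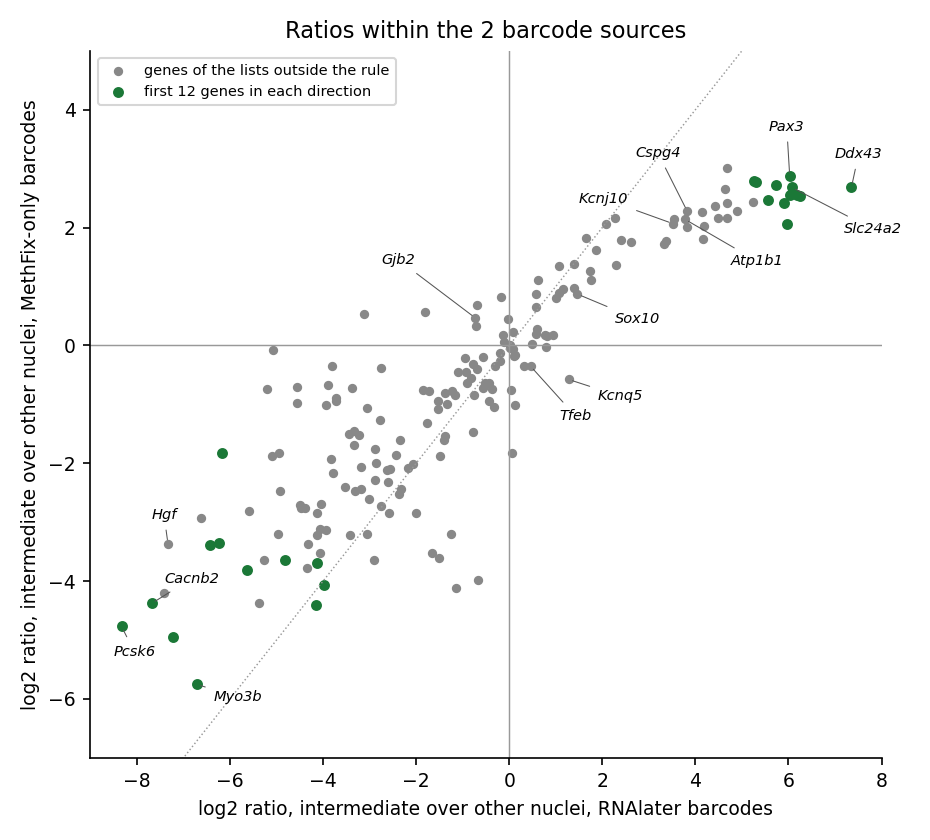
log2 ratio of members to other nuclei within RNAlater barcodes (horizontal) and within MethFix-only barcodes (vertical), for the first 12 genes in each direction (green) and the genes of the lists outside the rule (grey), 1 point a gene, where a side with 0 UMIs is set to 3 and the point is a bound. The green genes lie on the same side of 0 in both sources, the 12 higher ones all nearer to 0 in MethFix-only barcodes, and Gjb2, Kcnq5 and Tfeb lie on opposite sides of 0.

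The melanosome genes outside the rule were the list in which the most genes stood higher. Of 22 measured, 11 were higher in members and 4 lower (median log2 ratio 0.96, against -0.18 for all genes), and against marginal-marker nuclei 11 of 18 were higher and 1 lower. Gpnmb, a melanosomal glycoprotein, was the most abundant, at 1389 CPM in RNAlater and 977 in MethFix-only members against 64.5 and 189 in the other nuclei (log2 ratio 3.81). Slc24a5 stood at 40.8 CPM in members against 2.11 in the others, and the cation channel Trpm1 at 34.3 and 13.5 in members with 0 UMIs in marginal-marker nuclei. Gpr143, a receptor on melanosomes, and Tspan10 followed, at 111 and 48.1 CPM in members. All 3 members of the complex that carries melanosomes along actin were higher, with Mlph at 73.2 CPM against 7.43, Rab27a at 123 against 13.3 and the motor Myo5a at 684 against 88.0. Rab38, the copper transporter Atp7a and Lyst completed the 11.

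Oca2, a melanosomal anion channel, had 4 UMIs in members, Hps6 and Mc1r, the melanocortin receptor, had 0, with an exact Poisson upper limit of 0.954 CPM. The 4 lower genes were Oca2, Tpcn2, a melanosomal cation channel, the adaptor subunit Ap1s3, and Slc7a11, a cystine transporter. Subunits of the adaptor complex AP-3, which sorts cargo to melanosomes, differed less than 2-fold, with Ap3b1 at 206 CPM against 200 and Ap3d1 at 101 against 77.3.

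Regulators of the melanocyte lineage were divided. Of 14 measured, 6 were higher and 4 lower (median log2 ratio 0.15). Besides Pax3, the endothelin receptor Ednrb stood at 382 and 272 CPM in RNAlater and MethFix-only members against 15.0 and 51.0 in the others, and Tfap2a at 21.9 and 10.6. Sox10, a neural crest factor that also marks marginal cells, was only moderately higher, at 520 and 643 CPM against 188 and 352, and against marginal-marker nuclei its log2 ratio was 0.87. Sox5 stood at 886 CPM against 438 in the others, close to the 2-fold limit. Within MethFix-only barcodes the log2 ratios to the other nuclei were 0.87 for Sox10, 0.90 for Sox5 and 0.95 for Zeb2, below that limit. Zeb2 stood at 484 CPM in members and 582 in basal-marker nuclei, and was higher only against all other nuclei and marginal-marker nuclei.

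Kit, the receptor that embryonic melanoblasts require, had only 4 UMIs in all members and stood at 3.72 CPM in the others. Erbb3, the neuregulin receptor, had 12, Lef1 had 7, and Sox9 stood at 14.2 CPM against 116. Irf4, Snai2, Foxd3 and Tfap2b had 0 UMIs in members. Tfe3, Creb1 and Bcl2 differed less than 2-fold. The MITF relative Tfeb also differed less than 2-fold, with opposite directions in the 2 barcode sources.

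**Figure D3:**
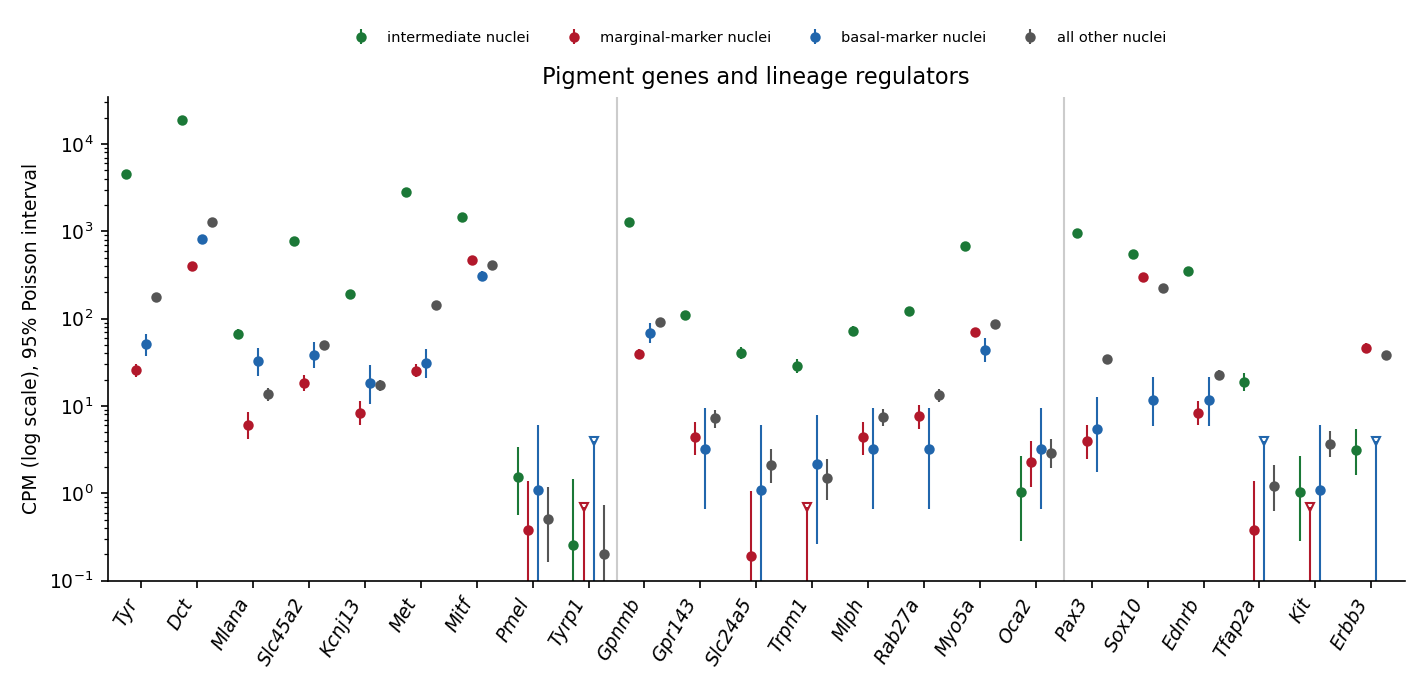
Level in CPM (logarithmic axis) of the 9 markers of the rule (left of the first line), of 8 other pigment genes (middle) and of 6 lineage regulators and receptors (right) in members, marginal-marker, basal-marker and all other nuclei. Bars are 95% Poisson intervals, drawn to the axis where they reach below 0.1, and open triangles mark the upper limit where no UMI was found; Dct, Tyr, Met, Gpnmb and Pax3 stand more than 10-fold above the other groups, and Pmel, Tyrp1, Oca2 and Kit lie near the floor in all.

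Hgf, which encodes the ligand of MET, stood at 1.41 CPM in RNAlater and 23.1 in MethFix-only members, at 399 in marginal-marker nuclei and at 2.16 in basal-marker nuclei (log2 ratio to marginal-marker nuclei -5.79, interval -6.38 to -5.25). The processing alternatives moved this ratio between -8.21 and -3.59. Met itself stood at 3029 and 2294 CPM in the members and at 25.4 in marginal-marker nuclei. Met is a marker of the rule, so its level was part of how these groups were chosen and tests nothing. Its ligand was highest in marginal-marker nuclei among these 3 groups. Of 6 ligands measured, Hgf, Nrg1, Edn1 and Nrg3 were lower and 0 higher (all genes: 22.8% lower), Nrg2 stood at 112 CPM against 159, and Kitl, the ligand of KIT, at 11.4 against 7.43. Edn2 and Edn3 had 0 UMIs in members. Against basal-marker nuclei 3 of 5 ligands were higher and 2 lower. One of the 3 was Hgf, on 2 basal UMIs, whose log2 ratio of 1.75 was -0.70 in RNAlater barcodes and -0.21 with a marker sum without Dct. The list summed to 140 CPM in members, 42.0 in basal-marker and 714 in marginal-marker nuclei.

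Among the listed potassium channels Kcnj10 had the highest level in members, at 1069 CPM in RNAlater and 678 in MethFix-only members. Kcnj13 and Kcnq1, the potassium channels of the rule, stood lower. The other nuclei stood at 93.5 and 162 CPM, the marginal-marker nuclei at 44.1 and the basal-marker nuclei at 147 (log2 ratio to all other nuclei 3.15, interval 3.06 to 3.25). After thinning every nucleus to 1000 UMIs, Kcnj10 was detected in 56.0% of members, 3.32% of marginal-marker nuclei and 10.5% of basal-marker nuclei. The share in marginal-marker nuclei, thinned to the same number of UMIs, is the background beside which the share in members is read, although the median of genes per thinned nucleus was 645 in members and 690 in marginal-marker nuclei. Of 27 potassium channel genes measured, 5 were higher, among them Kcnj10, and 15 lower (median log2 ratio -1.22). Against marginal-marker nuclei 6 of 15 were higher and 6 lower (median 0.05), and against basal-marker nuclei 4 of 10 were higher and 1 lower (median 0.49). Kcnj2, Kcnj9 and Kcna2 were also higher but had at most 17 UMIs each. Kcnma1, the large-conductance calcium-activated channel, stood at 83.5 CPM in members and at 1500 in marginal-marker nuclei.

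Beta subunits of the sodium pump differed between the layers in opposite directions. Atp1b1, the beta-1 subunit, stood at 2823 and 1792 CPM in RNAlater and MethFix-only members against 206 and 407 in the others, and at 104 in marginal-marker nuclei (log2 ratio to these 4.62, interval 4.50 to 4.75). Atp1b2, the beta-2 subunit, stood at 71.3 CPM in members and 868 in marginal-marker nuclei. Atp1b3 stood at 508 CPM in members and 481 in basal-marker nuclei. Of 17 transport genes measured, Atp1b1 and Atp1b3 were higher and 9 lower, while against marginal-marker nuclei 2 of 16 were higher and 6 lower and against basal-marker nuclei 4 of 13 were higher and 3 lower. Among the lower genes were Bsnd (barttin), a subunit of chloride channels, at 1.55 CPM against 46.5 in marginal-marker nuclei, and the potassium-chloride cotransporter Slc12a7, at 25.3 against 338.

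Slc12a2, the sodium-potassium-chloride cotransporter NKCC1, is on the marginal list of the rule and yet stood at 1990 CPM in members, most of the 2183 CPM that this list summed to. The level was 2169 in RNAlater and 1502 in MethFix-only members, 8395 in marginal-marker nuclei and 1206 in basal-marker nuclei. The other 7 marginal markers were each at 70.0 CPM or less in members, with Kcnq1 at 70.0 CPM and Esrrb at 26.4.

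Gjb6 (connexin 30) stood at 482 CPM in members, 945 in basal-marker nuclei and 45.4 in marginal-marker nuclei, and Gjb2 (connexin 26) at 161, 924 and 42.7. Gjc3 stood at 362 CPM in members, 237 in basal-marker and 10.1 in marginal-marker nuclei. All 3 of these were higher than in marginal-marker nuclei, where 3 gap junction genes were measured. Against all other nuclei 2 of 6 were higher, Gjc3 and the channel gene Panx1, and 2 lower, Gja1 and Gjc1. Gja1 (connexin 43) had 1 UMI in members.

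**Figure D4:**
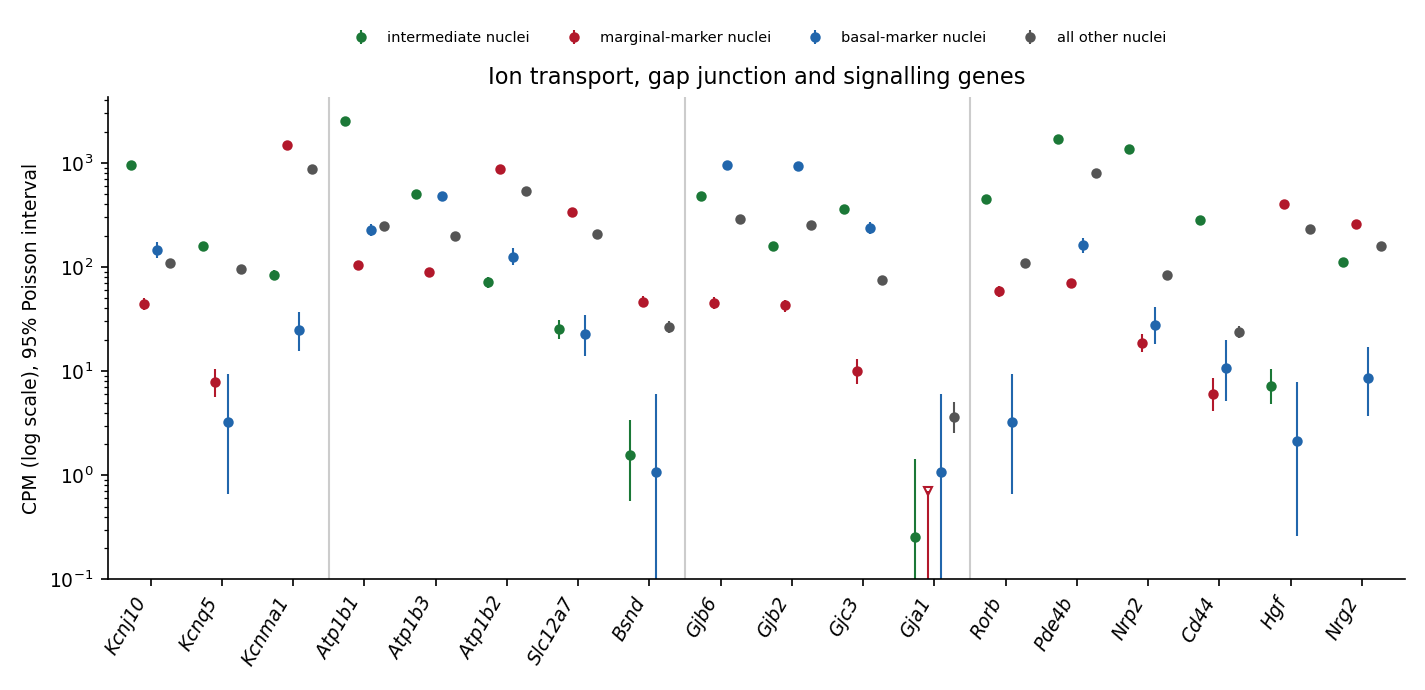
Level in CPM (logarithmic axis) of potassium channels, beta subunits of the sodium pump with chloride transport genes, gap junction genes, and other genes, from left to right, in the same 4 groups, with 95% Poisson intervals and open triangles for upper limits at 0 UMIs. Kcnj10 and Atp1b1 stand highest in members, Atp1b2, Kcnma1 and Hgf in marginal-marker nuclei, and Gjb6 and Gjb2 in basal-marker nuclei.

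Of 30 adhesion and guidance genes, 5 were higher and 20 lower than in all other nuclei (median log2 ratio -2.21, background 7.83% and 22.8%). Against the neighbouring layers the counts were even, with 9 of 28 higher and 10 lower than in marginal-marker nuclei (median 0.20), and 12 of 26 higher and 11 lower than in basal-marker nuclei (median -0.50). Nrp2, a semaphorin and VEGF receptor, was the most abundant at 1473 and 1096 CPM in RNAlater and MethFix-only members against 59.2 and 173 in the others. Plxnc1, a semaphorin receptor known from melanocytes, Cdh2 (N-cadherin), the hyaluronan receptor Cd44 and Plxna1 were the other 4. Cdh2 stood at 323 CPM in members and Cdh1 (E-cadherin) at 230, against 42.1 and 458 in the other nuclei. Slit3, a secreted guidance protein, stood at 28.4 CPM against 2509 in marginal-marker nuclei, and Slit2 at 27.4 against 829 in basal-marker nuclei.

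Of 21 antioxidant and metal genes, Gsta4, which detoxifies products of lipid peroxidation, and Hmox1 were higher and 3 lower. Over all genes 7.83% were higher and 22.8% lower, so by these counts the list did not stand out. Gsta4 stood at 734 and 778 CPM in RNAlater and MethFix-only members against 213 in the others, and Fth1, the ferritin heavy chain, at 841 against 826. Of 7 antigen presentation and complement genes the complement component C4b was higher, at 102 and 75.1 CPM against 2.69 and 13.9, and 1 was lower. Counts this small do not set the list apart from all genes. Of 12 immediate early and heat shock genes 0 were higher and 8 lower, among them Hsp90aa1 at 40.6 CPM against 122. Of 8 genes that the study discusses, a list chosen on these libraries and so no independent evidence, Kcnj10, Rorb, a nuclear receptor, and Pde4b, a cyclic AMP phosphodiesterase, were higher and 4 lower. Rorb stood at 492 and 345 CPM in members against 116 and 83.0, and Pde4b at 1885 and 1157 against 894 and 455. The call for Pde4b was lost with thinned nuclei (0.83), without the mitochondrial limit (0.84) and without the marginal limit (0.99).

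Marker lists of other cell types were low in members, with exceptions in the lists for Schwann cells and pericytes. Of the 6 Schwann cell markers, 3 were higher, among them Cdh19 and Pmp22, and 2 lower, among them Mbp. Cdh19, a cadherin of neural crest derivatives, stood at 447 CPM against 40.7 and Pmp22 at 81.7 against 26.5, while Mbp, a myelin protein, stood at 15.0 CPM against 198. Summed, the list was at 824 CPM in RNAlater and 499 in MethFix-only members and 390 in marginal-marker nuclei. Of the 5 pericyte markers, Cspg4 (NG2) was higher at 77.3 CPM against 6.83, while Pdgfrb, Rgs5, Abcc9 and Notch3 had 3 to 12 UMIs each and were lower.

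Apart from the marginal list of the rule and the basal list, the other lists stood below 50 CPM in sum. The summed levels in members and in all other nuclei were 35.7 and 472 CPM for spindle and root cells, 9.05 and 152 for Reissner's membrane, 42.4 and 294 for fibrocytes, and 15.3 and 143 for bone. The Reissner's membrane list stood at 6.01 against 187 CPM in RNAlater and at 17.3 against 22.3 in MethFix-only barcodes. The sums were 20.4 and 33.0 for macrophages (Cd163 at 0 UMIs), 5.69 and 43.1 for endothelium (Cldn5 and Kdr at 0 UMIs), 14.5 and 89.0 for neurons and 8.53 and 18.1 for red blood cells. The basal list summed to 128 CPM in RNAlater and 480 in MethFix-only members, with Cldn11 as its most abundant gene at 64.1 CPM and none of its 7 genes at 0. Within members it was uneven, at 2196 CPM in cluster 8 of the clusters described below, 495 in cluster 10, 273 in cluster 6 and 38.0 to 71.8 in the other 7. Without clusters 8 and 10, whose nuclei Scrublet often marked, the genes that were lowest against basal-marker nuclei were lower still, with log2 ratios of -8.35 for Bmp6, -8.31 for Lctl and -8.75 for Gm5089.

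By the variance of UMIs over their mean, the members varied among themselves most in Malat1, a nuclear long noncoding RNA. Malat1 held 148317 CPM in RNAlater and 279027 in MethFix-only members. This measure can rise with a gene's level, and the mean per thinned member was 201 UMIs for Malat1 and 0.171 for Kcnq5. Over 846 members thinned to 1000 UMIs, 75 of 2859 genes had a variance of UMIs that exceeded their mean by more than 0.5 of the mean, and 17 by more than 1. In order these were led by Malat1 (an excess of 53.6), the mitochondrial transcripts mt-Rnr2 (9.49), mt-Cytb (7.14) and mt-Rnr1 (2.45), A930011G23Rik (2.32), Kcnq5 (2.31), mt-Nd2 (2.27) and Apod (2.20). The place of A930011G23Rik rested on RNAlater barcodes, with an excess of 3.20 there and 0.27 in MethFix-only barcodes, and its excess was 0.98 at 2000 UMIs. Of the 747 UMIs of Apod in members, 376 were in cluster 8. The mitochondrial transcripts were unequal between the sources, with mt-Rnr2 at 2263 CPM in RNAlater and 9714 in MethFix-only members. Within RNAlater barcodes the excess was 1.15 for mt-Cytb and 0.78 for mt-Rnr1. Within MethFix-only barcodes it was 7.08 and 2.38, so their places rested largely on that source. Apod, a lipid carrier, and A930011G23Rik were more abundant in the other nuclei, at 968 and 514 CPM, than in members, at 193 and 96.7.

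Kcnq5, a potassium channel of the M-current family, varied within both sources of members, with an excess of 2.66 in RNAlater and 1.15 in MethFix-only barcodes. It was detected in 75 of 752 thinned members outside the clusters 8 and 10 described below (9.97%), in 17.9% of those with Mgll, the monoacylglycerol lipase, and in 7.80% of those without. With Spon1, found in 37.9% of these members, it was detected in 6.67% and without Spon1 in 11.99%. Mgll and Kcnq5 lead the same cluster of these nuclei and Spon1 leads another, so these shares describe the nuclei and test nothing. The level of Kcnq5 was 171 CPM in RNAlater and 123 in MethFix-only members, against 7.82 in marginal-marker and 3.23 in basal-marker nuclei. All other nuclei stood at 70.8 CPM in RNAlater barcodes and, above the members, at 184 in MethFix-only barcodes.

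Clustering of the members alone, without the genes of the rule, gave 10 clusters of 133 to 38 nuclei. The leading genes were Mgll and Kcnq5 in cluster 1 (133 nuclei; Kcnq5 stood at 314 CPM there and higher, at 435, in cluster 10), Pclo in cluster 2 (129), Malat1 in cluster 3 (119), Elovl6 and Opcml among others in cluster 4 (112), Ltbp3, Tpt1 and Apoe in cluster 5 (109), and mitochondrial transcripts in cluster 6 (72). Cluster 7 (66) was led by Spon1 at 3016 CPM against 545 in the other members, with Xylt1 and Unc5c, and cluster 9 (44) by Prpf4b, Sox10 and Rorb with folds under 2. Clusters 1, 2, 4, 5 and 7 held mostly RNAlater barcodes, and cluster 3, with 118 of 119 MethFix-only barcodes, clusters 6 and 9 mostly MethFix-only barcodes. A cluster that consists of 1 source may be that source and not a kind of cell.

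Clusters 8 (59 nuclei) and 10 (38) differed from the others in holding fewer intermediate markers. Their median marker share was 1.68% and 1.76%, against at least 2.68% in the other 8. Cluster 8 was led by Gm44593, Eya2, Gm12153, the basal marker Sorcs3 and Kcnk2, and the basal list stood at 2196 CPM in it, against at most 495 in any other cluster. Kcnk2 was found in only 1.69% of its nuclei. Cluster 10 was led by Dkk2, Chst9, Frem1 and Dach1, with spindle and root markers at 310 CPM and Reissner's membrane markers at 109. Scrublet marked 52 of the 97 nuclei of these clusters (53.6%), and 75 of the 97 were MethFix-only barcodes. Without these clusters the members numbered 784, with 1178 genes higher and 3436 lower than in all other nuclei.

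**Figure D5:**
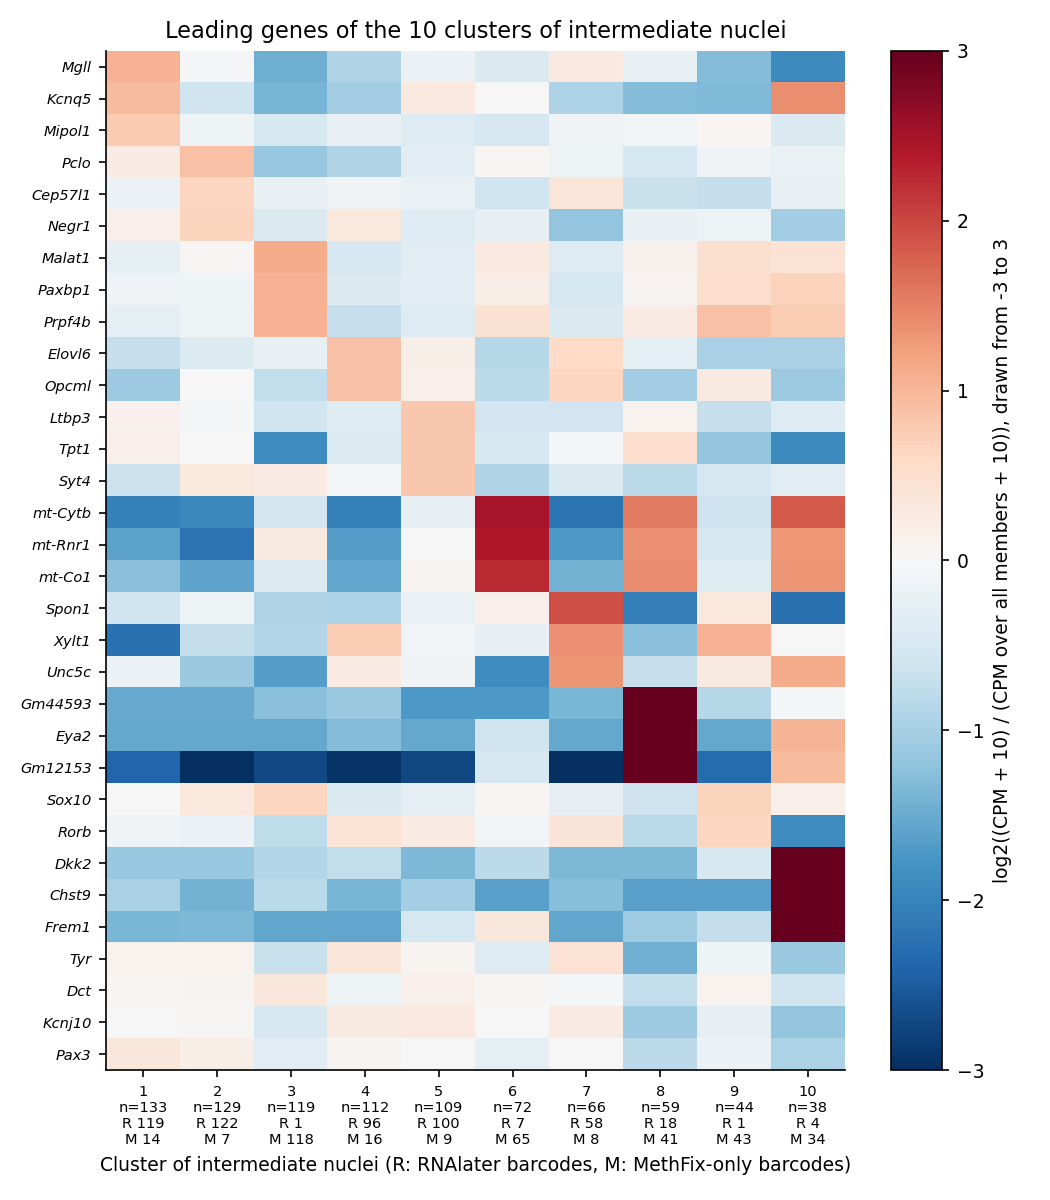
Level of leading genes of each cluster of members (the first 3, or 2 of these in cluster 4), and of Tyr, Dct, Kcnj10 and Pax3, as log2 of the ratio of the cluster's CPM to that over all members (10 added to both, drawn from -3 to 3), with the number of nuclei and of RNAlater (R) and MethFix-only (M) barcodes under each column. The first 3 genes of clusters 8 and 10 are at least 75-fold higher there than in the other members, and Tyr, Dct, Kcnj10 and Pax3 are lowest in these 2 clusters.

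The counts of the shared barcodes were also compared between the matrices. As the origin of these barcodes cannot be told apart, their likeness is no independent evidence for the counts or the members. Over the 526 members found in both matrices, 4005 genes had at least 100 UMIs in each matrix, and 12 of them differed by more than 0.5 in log2 CPM between the matrices and 1 (Gm28438, 47.3 CPM in RNAlater and 195 in MethFix) by more than 1. The 5th and 95th percentiles of the difference were -0.13 and 0.14.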

How the data were processed

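Nuclei of the SV were captured on the 10x Genomics platform with 3′ chemistry. The authors deposited raw UMI counts per gene and barcode for each library, made by Cell Ranger 3.0.1 against GRCm38 (mm10), with no normalization. Scanpy 1.4.5 is named in the submitters' processing notes and made no file used here. No column of other values was present. The 48816 features were summed to 48694 symbols, as 116 symbols stand on more than 1 feature. Gene coordinates are those of GENCODE release M21 and promoters those of RefSeq.

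The members and all gene lists were chosen with earlier results of these data known. UMIs were summed per group and divided by total UMIs. A log2 ratio needed 20 UMIs in both groups together and was called at 1 or -1 (2-fold), with an exact binomial 95% interval. A side with 0 UMIs was set to 3, which makes the ratio a bound. CPM have exact Poisson intervals, shares exact Clopper-Pearson intervals. Genes of the rule were left out of counts of called genes, and, a choice made after values were seen, the basal markers out of the basal comparison. Named genes were the first 12 in each direction against all other nuclei, and the first 6 against each layer, with 100 UMIs in the higher group and a call in both barcode sources; for variation the first 8, and for each cluster the first 5 with 50 UMIs, of which the leading ones are given. Members were clustered with scanpy 1.11.5 and leidenalg 0.10.2 (4000 variable genes, 30 components, 10 neighbours, resolution 1). Scrublet, with an expected rate of 0.1, marked 222 of 3596 MethFix barcodes (6.17%) and 18 of 2329 RNAlater barcodes (0.773%), and marked barcodes were kept. TMM factors came from edgeR 4.0.16 in R 4.3.3, intervals from scipy 1.17.1 and figures from matplotlib 3.10.9, with tables handled by pandas 2.3.3 and numpy 2.4.6 under Python 3.11.15. The scripts were tested on simulated data. In all, 13 alternatives were planned and 4 were added after the data had been seen. PCR duplicates are removed by the UMIs, but intervals cover counting error only. Some genes that met these rules or stand on the lists are not reported here.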

Additional observations from a re-analysis of the deposited data

Results flagged for a closer look

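In 3 of the genes described, the ratio of members to other nuclei had opposite signs in the 2 barcode sources, with intervals that lie on opposite sides of 0. The difference between the sources was not tested. Gjb2 had a log2 ratio of -0.73 (-0.87 to -0.59) in RNAlater barcodes, at 182 CPM in members and 301 in the others, and of 0.46 (0.10 to 0.83) in MethFix-only barcodes, at 103 and 74.7 CPM. Kcnq5 had 1.28 (1.10 to 1.45) in RNAlater barcodes, at 171 and 70.8 CPM, and -0.58 (-0.88 to -0.29) in MethFix-only barcodes, at 123 and 184 CPM. Tfeb had 0.46 in RNAlater and -0.35 in MethFix-only barcodes. Over all genes, 66 showed such opposite intervals, and basal-marker nuclei, the group with the highest Gjb2 level, made up 252 of the 2329 RNAlater barcodes (10.8%) and 48 of the 1157 MethFix-only barcodes (4.15%).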

How the results depend on the processing

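The number of members was 1470 without the mitochondrial limit, 526 in RNAlater and 355 in MethFix-only barcodes, and between 699 and 1046 under the other alternatives. With MethFix-only barcodes, the higher and lower genes against all other nuclei numbered 668 and 1849, and the higher genes 959 against marginal-marker and 961 against basal-marker nuclei. With no filter on low counts, 2290 genes were higher against all other and 2934 against marginal-marker nuclei, and 4212 lower against basal-marker nuclei. With nuclei thinned to 1000 UMIs, 1060 were higher against marginal-marker and 1096 lower against basal-marker nuclei. At 2000 UMIs, 183 genes varied by more than 0.5 over the mean. With RNAlater barcodes alone, the higher and lower genes against all other nuclei numbered 1185 and 3188. Why the counts moved under some alternatives was not tested. Other counts stayed within 1.5 times. Of 1392 ratios of named genes, 917 moved by less than their counting interval, 472 by more, and 3 that had been 2-fold or more came out on the other side of 0. Ratios under 2-fold that changed sign, such as those of Kcnq5 and Gjb2 in MethFix-only barcodes, are among the 472. The 3 were Hgf against basal-marker nuclei, 1.75 on 2 basal UMIs, which became -0.70 in RNAlater barcodes, -0.21 with a marker sum without Dct and -1.15 in MethFix-only barcodes, where 0 basal UMIs make it a lower bound that shows no change of sign. TMM factors raised all log2 ratios against all other nuclei by 0.13. No paired analysis was possible because each group of the labels is 1 library and most barcodes are in both. Depth limits genes under about 20 UMIs, such as Pmel, Tyrp1, Kit and Oca2, and the part of free RNA in the levels of other cell types was not tested.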
